A study of Mus musculus with 2 samples.

Results

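The genes described here encode the machinery with which a cell enters and completes mitosis: the cyclins and CDK1, the mitotic kinases, the kinesins and spindle proteins, the condensins, and the proteins of chromatid separation and cytokinesis. A list of 48 such genes was read on 2 Affymetrix mouse 430A arrays of pancreatic islets, 1 from PERK wild-type and 1 from PERK knockout mice, both taken 2 days after birth. PERK, the product of Eif2ak3, is an endoplasmic reticulum kinase that slows protein synthesis under folding stress. Of the 48 listed genes, 45 had a probe set annotated to that gene alone, out of 12393 genes represented on the array. Each gene was read from its probe set with the highest mean signal, and the other probe sets served as a check. No value is given for Ccnb1, Espl1 and Cdca8, which had no such probe set.

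Transcription of these genes rises late in the cell division cycle, in G2, ahead of mitosis. Many of their promoters carry a short element called the cell cycle genes homology region (CHR), on which the DREAM complex sits in resting cells and the B-MYB and FOXM1 factors act in dividing cells, and CCAAT boxes, which bind NF-Y. Because their transcripts are made late in the cycle and their proteins are degraded after it, their levels in a tissue are widely used as a readout of dividing cells, and the neonatal period is a time of beta cell division in rodents.

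Islets of both groups were isolated with collagenase P, and total RNA was hybridised as biotin-labelled cRNA. The labels give mixed strains and sexes for the wild type, and they give neither for the knockout. The labels do not say how the allele was made or how many pups gave islets. Each genotype has a single array, so nothing measures the spread between replicates, no p-value exists, and each ratio compares these 2 RNA preparations rather than genotypes at large. In whole islets, fewer dividing cells and less of a transcript per dividing cell cannot be told apart.

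Values are signal intensities in arbitrary units on arrays brought to an equal 2% trimmed mean. A floor was set at 39.8, the 40th percentile of all signals, and lower values were not ordered. Genes over that floor in both libraries are called measured. Where only 1 of the signals exceeded it, the ratio is a bound, and where neither did, no fold is given. The measure of error is the disagreement between probe sets of the same gene, an SD of 0.26 on the log2 scale over 2597 genes. It covers differences between probe sets on the same 2 arrays. Error that the probe sets of a gene share, as from animals, RNA preparation, labelling or a whole array, is not in it. Eif2ak3 itself went from 117.7 in the wild-type library to 58.7 in the knockout library (2.01-fold lower). Signal ratios of 3' over 5' probe sets, which gauge how long the labelled cRNA was, came to 1.61 (wild type) and 2.01 (knockout) for beta-actin, and to 1.01 and 0.867 for Gapdh. Whether RNA length contributed to any ratio below was not tested.

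Transcripts of G2 and mitosis were lower in the knockout library, nearly without exception. With no floor applied, the knockout signal was under the wild-type signal for 44 of the 45 genes, whereas 44.7% of all 12393 genes had a lower signal in the knockout. Of the 45, 34 were measured, 9 (of 43 above the floor on any array) were above it in the wild type only, against 3.05% of such genes on the whole array, and 2 (Nek2, a centrosome kinase, and Cenpe, a kinetochore motor) were at the floor on both arrays. Log2 ratios (knockout over wild type) of the 34 measured genes had a median of -0.85 (1.81-fold lower), with quartiles at -1.26 and -0.59, against a median of 0.03 and quartiles at -0.15 and 0.23 over all 8133 measured genes. At least 2-fold lower were 14 of the 34, where 0.652% of all measured genes were, and 0.757% of those whose mean signal lay within the range of these 34. No measured member was 2-fold higher (0.516% of all measured genes). A ratio below 0 by more than 2 probe set SDs (0.51) was found for 26 of the 34, against 4.03% of all measured genes. Ordered from the lowest ratio, the first 100 of all measured genes held 20 members.

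**Figure D1:**
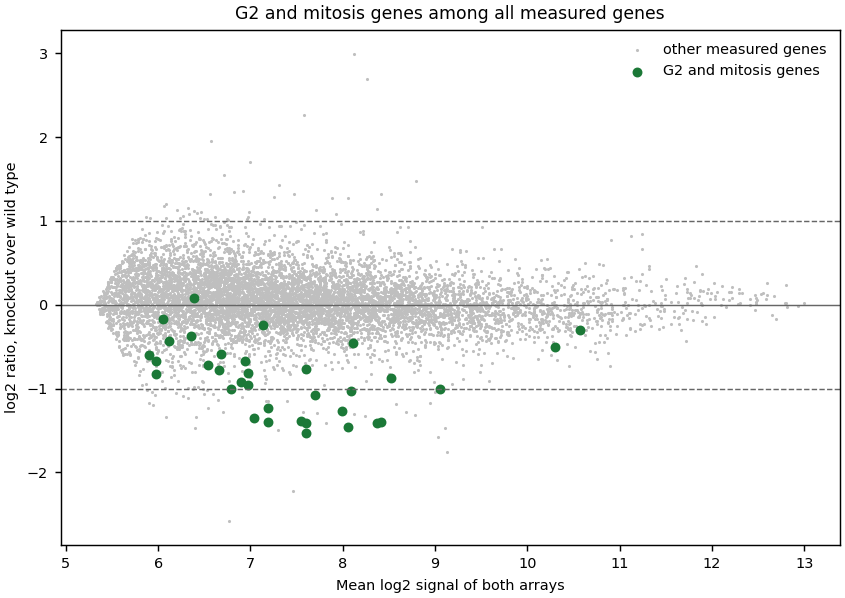
Log2 ratio of knockout over wild type (vertical axis) against the mean log2 signal of both arrays (horizontal axis) for 8133 measured genes, with the 34 measured G2 and mitosis genes in green and dashed lines at 2-fold. All green points but that of Foxm1 lie below 0, and 14 lie at or under the lower dashed line.

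The promoters of these genes were searched for elements already known from mitotic promoters. Frequent matches among mitotic genes are therefore a description and not independent support for the list. RefSeq promoter windows of GRCm38.p6, from 250 bases before to 50 after the annotated start, were matched for 39 of the 48 genes by symbol. The CHR was searched as TTTGAA or TTCGAA and the NF-Y box as CCAAT, on both strands. At least 1 CHR match was present for 30 of the 39 genes (76.9%), against 17.1% of 9851 other genes of the array. At least 1 CCAAT box was present for 32 (82.1%, against 42.2%), at least 2 for 22 (56.4%, against 15.4%), and both elements for 28 (71.8%, against 6.64%). The E2F motif of S phase promoters, searched as TTTCCCGC, TTTGGCGC or TTTCCCGG on both strands, was as frequent here as elsewhere (2 of 39 genes, 5.13%, against 5.05%). The elements were not particular to these genes. Of 68 windows of the other mitotic genes described below, 58.8% held a CHR, 60.3% a CCAAT box and 36.8% both. Of 36 windows of G1 and S phase genes, 27.8%, 61.1% and 19.4% did. The E2F motif was in 19.1% of the other mitotic and 33.3% of the G1 and S phase windows. A match is a run of letters and does not show that a factor binds.

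The 8 windows printed next show the arrangement at promoters of genes at least 2-fold lower in the knockout, with Birc5 as a 2-fold lower gene without either element and Tacc3 as the measured member below 0 whose ratio was nearest to 0. They are Cdk1 (chr10:69352863-69353162, minus strand), Ccnb2 (chr9:70421505-70421804, minus strand), Cdc20 (chr4:118437294-118437593, minus strand), Ube2c (chr2:164769679-164769978, plus strand), Top2a (chr11:99024140-99024439, minus strand), Mki67 (chr7:135716330-135716629, minus strand), Birc5 (chr11:117848987-117849286, plus strand) and Tacc3 (chr5:33657878-33658177, plus strand). Sequences run 5' to 3' on the strand of the gene, and capitals mark CHR and CCAAT matches on either strand, so ATTGG is a CCAAT box and TTCAAA a CHR read from the other strand. In Ube2c a pair of CCAAT boxes on opposite strands overlap. The printed windows do not stand for the whole list. Pttg1, 2.01-fold lower, also held neither element. Cdc25b, with a log2 ratio of only -0.24, held a CHR near the start with a CCAAT box 35 bases ahead of it.
Cdk1: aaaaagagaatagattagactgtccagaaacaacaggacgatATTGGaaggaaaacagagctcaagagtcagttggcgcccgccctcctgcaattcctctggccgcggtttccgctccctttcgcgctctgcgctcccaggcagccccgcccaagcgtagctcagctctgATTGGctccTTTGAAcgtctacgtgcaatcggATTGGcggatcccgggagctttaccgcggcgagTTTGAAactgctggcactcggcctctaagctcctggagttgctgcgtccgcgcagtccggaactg
Ccnb2: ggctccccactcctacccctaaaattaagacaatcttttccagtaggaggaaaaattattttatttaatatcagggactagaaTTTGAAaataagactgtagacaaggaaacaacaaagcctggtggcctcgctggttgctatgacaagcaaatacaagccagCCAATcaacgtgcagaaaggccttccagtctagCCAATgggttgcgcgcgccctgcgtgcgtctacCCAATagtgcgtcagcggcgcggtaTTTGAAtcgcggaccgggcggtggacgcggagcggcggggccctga
Cdc20: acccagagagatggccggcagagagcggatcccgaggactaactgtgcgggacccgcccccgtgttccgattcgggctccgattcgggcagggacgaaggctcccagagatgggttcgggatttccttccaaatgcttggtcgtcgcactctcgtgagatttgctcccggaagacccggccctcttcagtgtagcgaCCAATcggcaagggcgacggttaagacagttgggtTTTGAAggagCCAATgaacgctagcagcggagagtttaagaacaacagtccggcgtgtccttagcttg
Ube2c: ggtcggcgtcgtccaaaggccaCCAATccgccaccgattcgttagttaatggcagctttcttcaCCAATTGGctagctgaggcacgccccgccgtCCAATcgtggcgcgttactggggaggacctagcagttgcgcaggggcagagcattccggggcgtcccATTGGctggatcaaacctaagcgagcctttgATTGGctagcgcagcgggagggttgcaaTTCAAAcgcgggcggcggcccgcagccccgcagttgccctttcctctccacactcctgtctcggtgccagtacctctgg
Top2a: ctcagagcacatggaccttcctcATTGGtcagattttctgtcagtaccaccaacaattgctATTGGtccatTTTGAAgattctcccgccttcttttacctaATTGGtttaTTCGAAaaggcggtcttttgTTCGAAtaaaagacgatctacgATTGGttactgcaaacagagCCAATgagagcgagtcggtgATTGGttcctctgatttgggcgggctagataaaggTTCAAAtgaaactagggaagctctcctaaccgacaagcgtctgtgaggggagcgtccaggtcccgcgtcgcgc
Mki67: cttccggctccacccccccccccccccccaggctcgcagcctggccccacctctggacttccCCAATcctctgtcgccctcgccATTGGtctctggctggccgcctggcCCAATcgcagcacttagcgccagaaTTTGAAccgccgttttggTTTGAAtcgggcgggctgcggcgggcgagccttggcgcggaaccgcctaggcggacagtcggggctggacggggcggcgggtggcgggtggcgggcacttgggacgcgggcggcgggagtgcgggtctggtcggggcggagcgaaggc
Birc5: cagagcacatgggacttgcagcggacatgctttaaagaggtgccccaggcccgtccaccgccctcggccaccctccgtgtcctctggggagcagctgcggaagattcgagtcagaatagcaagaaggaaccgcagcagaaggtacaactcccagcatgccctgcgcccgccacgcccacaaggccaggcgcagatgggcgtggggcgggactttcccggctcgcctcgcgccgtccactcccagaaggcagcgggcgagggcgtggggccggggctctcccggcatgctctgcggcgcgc
Tacc3: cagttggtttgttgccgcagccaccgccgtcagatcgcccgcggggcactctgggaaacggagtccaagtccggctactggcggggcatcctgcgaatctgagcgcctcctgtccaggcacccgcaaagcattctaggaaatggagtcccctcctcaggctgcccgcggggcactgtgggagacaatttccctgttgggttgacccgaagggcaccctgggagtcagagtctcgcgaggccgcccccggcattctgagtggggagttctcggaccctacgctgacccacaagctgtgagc

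The CHR matches of these genes lay close to the start. A CHR began within 50 bases of the annotated start, on either side, for 27 of the 39 genes, against 332 of 9851 other genes (3.37%). For 17 of the 39 (43.6%) a CCAAT box began 20 to 50 bases ahead of such a CHR, against 38 of the others (0.386%). Those limits were set after the positions had been seen. Cdk1 had the pair 33 bases apart, Top2a 35, Cdc20 35, Ube2c 28 and Ccnb2 25. In Mki67 both CHR matches lay further ahead of the annotated start. Within the list, the 18 measured genes with a CHR within 50 bases had a median log2 ratio of -0.98 and the 9 without had -0.78, with overlapping ranges (-1.46 to -0.24 and -1.42 to -0.17). All 7 genes with a window among those at the floor in the knockout only held both elements, as did 28 of all 39 (71.8%). Those 7 passed the floor in the wild type only, so they give no ratio for this comparison.

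**Figure D2:**
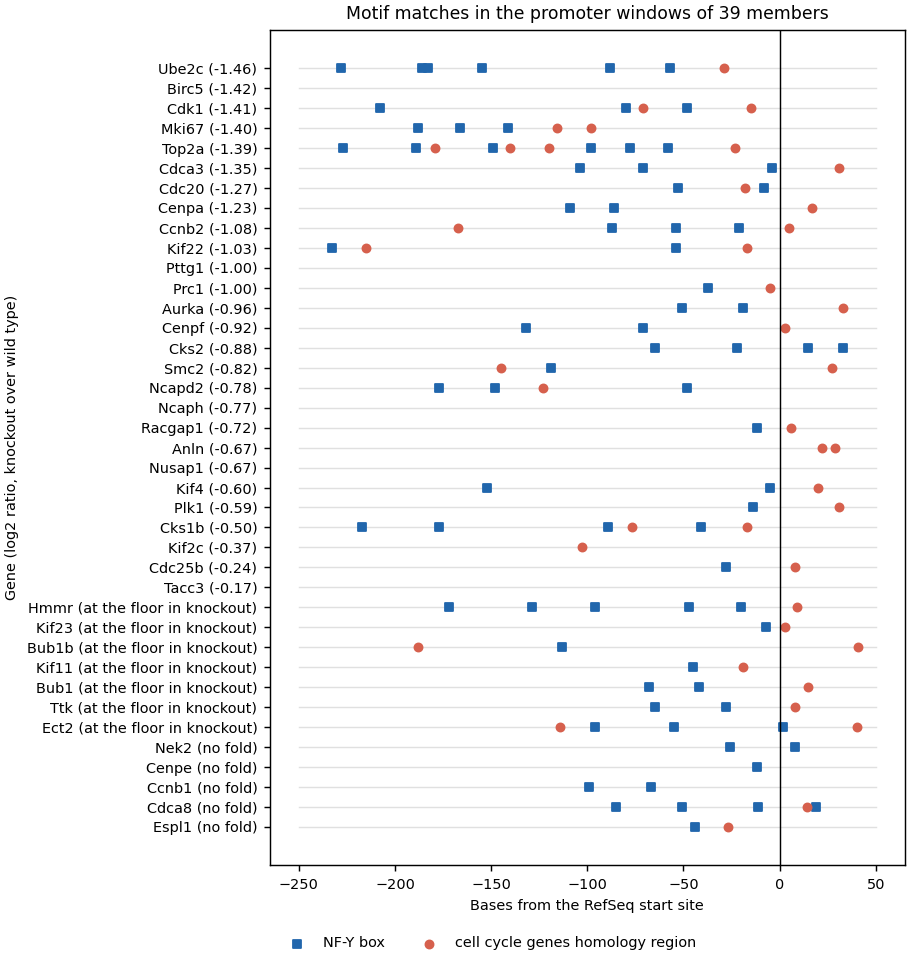
Matches to the CHR (circles) and the NF-Y box (squares) in promoter windows of 39 members, by distance in bases from the RefSeq start site. From the top, genes stand in order of log2 ratio, lowest first, followed by genes with a bound and those with no fold. Circles gather near the start, within 50 bases for 27 genes, with squares ahead of them.

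Cyclins and CDK1, the kinase whose activity defines mitosis, were among the most reduced. Ccna2, cyclin A2, which partners CDKs in S phase and G2, had a wild-type signal of 329.0 and a knockout signal of 114.3, the order in which pairs of signals are given from here on. It was 2.88-fold lower, the fifth lowest ratio of all 8133 measured genes, and its other probe set went from 195.7 to 90.3 (log2 -1.12). Cdk1 had signals of 539.6 and 203.4 and was 2.65-fold lower. Ccnb2, a B-type cyclin that activates CDK1, went from 301.1 to 142.4 (2.11-fold lower). The CDK-binding proteins CKS1 and CKS2 were lower by less on their chosen probe sets. Cks2 went from 498.0 to 271.0 (1.84-fold lower), and its second probe set gave a larger ratio, from 411.1 to 150.3 (log2 -1.45). Cks1b, whose protein also serves the ubiquitin ligase that removes p27 in G1, went from 1501 to 1060 (1.42-fold lower), with a log2 ratio of -0.55 on its second probe set. Of the CDC25 phosphatases, which switch CDK1 on, Cdc25b went from 152.9 to 129.8, a log2 ratio of -0.24 that lies within 1 probe set SD of 0. Cdc25c was just above the floor in the wild type (45.3) and under it in the knockout (22.8), at least 1.14-fold lower.

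**Figure D3:**
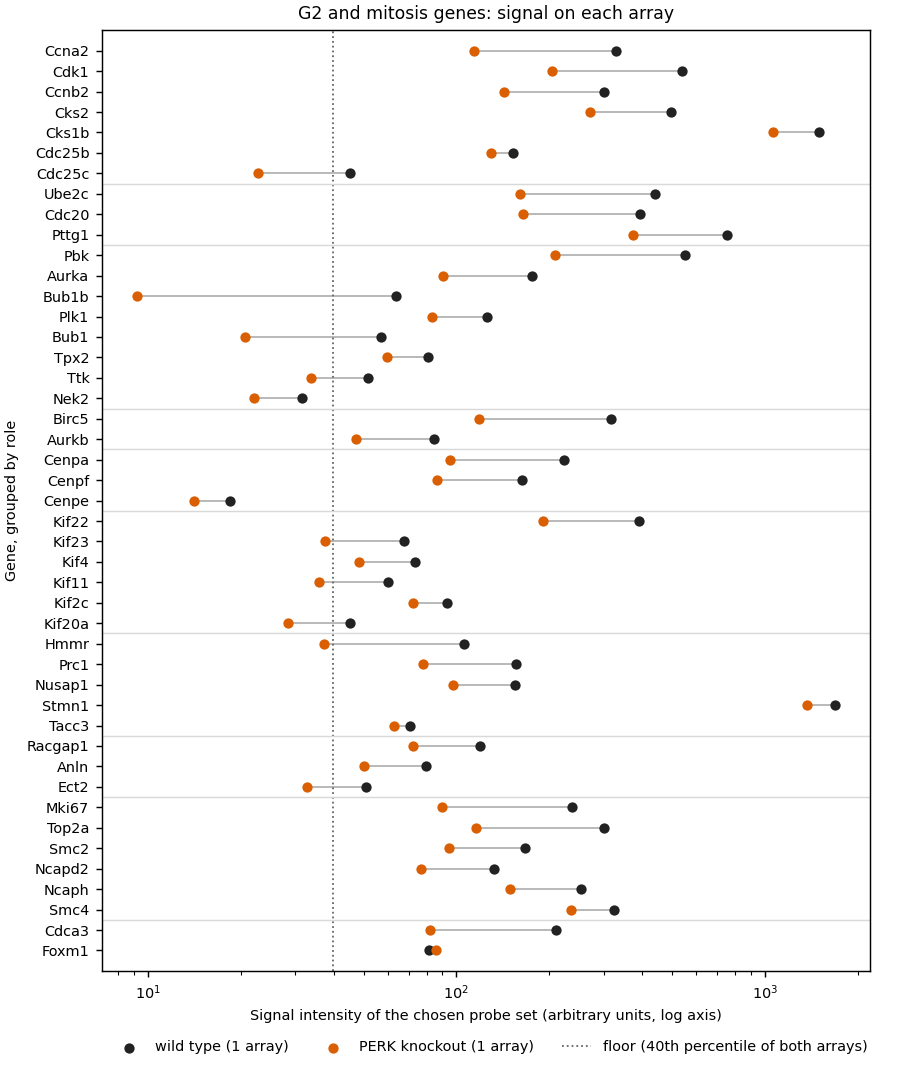
Signal of the chosen probe set on the wild-type array (black) and the knockout array (orange) for the 45 genes with a probe set, on a log axis, grouped by role. The dotted line is the floor at 39.8. Orange lies left of black for 44 genes, and Foxm1 is the exception.

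Partners of the anaphase-promoting complex (APC/C), the ubiquitin ligase that ends mitosis, were all at least 2-fold lower. Ube2c, the E2 enzyme of the complex, had signals of 440.9 and 160.5 and was 2.75-fold lower. Cdc20, its activator, went from 394.9 to 163.8 (2.41-fold lower). Its second probe set, from 349.5 to 141.3, gave nearly the same log2 ratio (-1.31 against -1.27). Pttg1, securin, the inhibitor of separase that the complex destroys, went from 751.4 to 374.7, just past 2-fold (2.01-fold lower), with a log2 ratio of -0.82 on its second probe set.

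The subunits of the APC/C itself did not share this. Of 14 listed subunits and activators that are no members, 11 were measured, 8 of these had ratios above 0, none was 2-fold apart, and their median log2 ratio was 0.09. Anapc5 had signals of 1673 and 1777 and Anapc13 of 769.3 and 761.7. These genes encode a complex that is present through most of the cycle. A CHR was found in 1 of their 13 promoter windows (7.69%). Cohesin genes held one in 2 of 7 windows (28.6%), and the regulators of mitotic promoters in 4 of 12 (33.3%). Neither of those lists, described below, had a measured gene 2-fold apart. Whether a CHR goes with a lower ratio was not tested.

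Among mitotic kinases and their activators, 4 of 8 genes were measured and 3 had bounds. Pbk, a kinase of dividing cells, went from 552.8 to 209.3 (2.64-fold lower), on its only probe set. Aurka, the Aurora kinase of the spindle poles, had signals of 176.0 and 90.4 and at 1.95-fold lower was the measured member nearest outside the 2-fold limit. Plk1, which acts from mitotic entry to cytokinesis, went from 125.5 to 83.5 (log2 -0.59). Tpx2, the activator of Aurora A, went from 80.6 to 59.6 (1.35-fold lower). Its other probe set went from 75.1 to a value under the floor (log2 at or under -0.92). The spindle checkpoint kinases were close to the floor even in the wild type. Bub1b was at 63.7 and 9.20, at least 1.60-fold lower. Bub1 was 56.8 and 20.6, at least 1.43-fold lower, and Ttk was 51.5 and 33.8, at least 1.29-fold lower.

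The chromosomal passenger complex corrects faulty spindle attachments. Birc5, survivin, its subunit at the centromere, went from 316.5 to 118.6 (2.67-fold lower). Its kinase Aurkb went from 84.3 to 47.4 (1.78-fold lower) on a probe set of a type that can cross-hybridise, and the floor hid its second probe set entirely. At the centromere, Cenpa, the histone H3 variant that marks it, had signals of 222.9 and 95.2 (2.34-fold lower). Cenpf, a kinetochore protein of G2 and mitosis, went from 163.6 to 86.3 (1.90-fold lower). Its second probe set, from 67.7 to 60.7, gave a log2 ratio of only -0.16, the widest gap among the 11 members with a second probe set measured on both arrays.

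Kinesins, the motors of spindle and chromosomes, had signals nearer to the floor. Kif22, a chromosome arm motor, went from 390.8 to 190.9 (2.05-fold lower). On both of its other probe sets only the knockout signal was at the floor, which allows log2 ratios at or under -0.79 and -0.45. Kif4, which with Prc1 organises the central spindle, went from 73.5 to 48.4 (1.52-fold lower). Kif2c, a microtubule depolymerase, went from 93.3 to 72.3 (1.29-fold lower), and a dimmer measured probe set was level at -0.02. Kif23 of the central spindle (67.4 and 37.4), Kif11 (59.8 and 35.7), the motor that separates the spindle poles, and Kif20a (45.0 and 28.4), a motor of cytokinesis, were under the floor in the knockout. Kif23 was at least 1.69-fold lower, Kif11 had a log2 ratio at or under -0.59, and Kif20a was at least 1.13-fold lower.

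The measured genes of spindle and microtubule proteins ranged from 2.00-fold lower to near equality, and Hmmr gave a bound. Prc1, which bundles microtubules between the separating chromosomes, went from 156.1 to 77.9 (2.00-fold lower). Nusap1 went from 155.1 to 97.8 (1.59-fold lower). Hmmr was at 105.5 and, under the floor, at 37.3, at least 2.65-fold lower, but a second probe set measured on both arrays gave a log2 ratio of -0.28. Stmn1, stathmin, a tubulin-binding protein also made in neurons and other cells that do not divide, went from 1686 to 1373 (1.23-fold lower) with log2 ratios of -0.30 on both probe sets. Tacc3, which stabilises spindle fibres, went from 70.5 to 62.6 (log2 -0.17), within 1 probe set SD of 0.

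Both measured genes of cytokinesis were lower by less than 2-fold, and Ect2 gave only a bound. Racgap1, a subunit of the centralspindlin complex, went from 119.6 to 72.4 (1.65-fold lower) and from 84.5 to 43.9 on its second probe set (log2 -0.94). Anln, anillin of the contractile ring, went from 79.7 to 50 (1.59-fold lower). Ect2, the exchange factor that activates RhoA at the cleavage plane, was 51.0 and 32.8, at least 1.28-fold lower.

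Among proteins of chromosome structure, the division markers Mki67 and Top2a had larger ratios than the condensins. Mki67, which encodes Ki-67, the common immunostaining marker of cycling cells, had signals of 236.9 and 89.6 and was 2.64-fold lower. Top2a, topoisomerase II alpha, which untangles sister chromatids, had 301.7 and 115.5 (2.61-fold lower). The condensin subunits did not reach 2-fold: Smc2 went from 166.4 to 94.4 (1.76-fold lower), Ncapd2 from 131.9 to 76.9 (1.72-fold), Ncaph from 253.4 to 148.7 (1.70-fold) and Smc4 from 324.3 to 236.1 (1.37-fold). The second probe set of Ncaph gave a log2 ratio of -0.71, and those of Smc4 gave -0.58 and -0.18. Cohesin, the complex that holds sister chromatids together and also shapes chromatin in resting cells, differed from this. Its 8 measured genes, none of them members, had a median log2 ratio of -0.05 with none at 2-fold. Rad21 had signals of 487.2 and 456.3, and Smc1a had 311.6 and 322.1.

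Cdca3, an adaptor of a ubiquitin ligase that allows mitotic entry, went from 209.6 to 82.3 (2.55-fold lower). A second probe set of it stood at 33.0 and 45.2, under the floor in the wild type. Foxm1, the transcription factor of G2 genes, was the only measured member with a ratio above 0. Its signals were 81.4 and 85.9, a log2 ratio of 0.08 within 1 probe set SD of 0, and it was -0.01 with loess normalisation. Its 3 other probe sets never exceeded the floor. The other regulators of mitotic promoters, of the DREAM, B-MYB and NF-Y complexes, had a median of -0.13 over 10 measured genes with none at 2-fold. Rbbp4 had signals of 1700 and 1503 and Tfdp1 of 283.6 and 255.7. Mybl2, which encodes B-MYB, was at the floor in the knockout and barely above it in the wild type (40.4). The lowest of these regulators, named after its value was seen, was Nfya, the DNA-contacting NF-Y subunit, from 194.7 to 105.8 (log2 -0.88, on a single measured probe set).

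**Figure D4:**
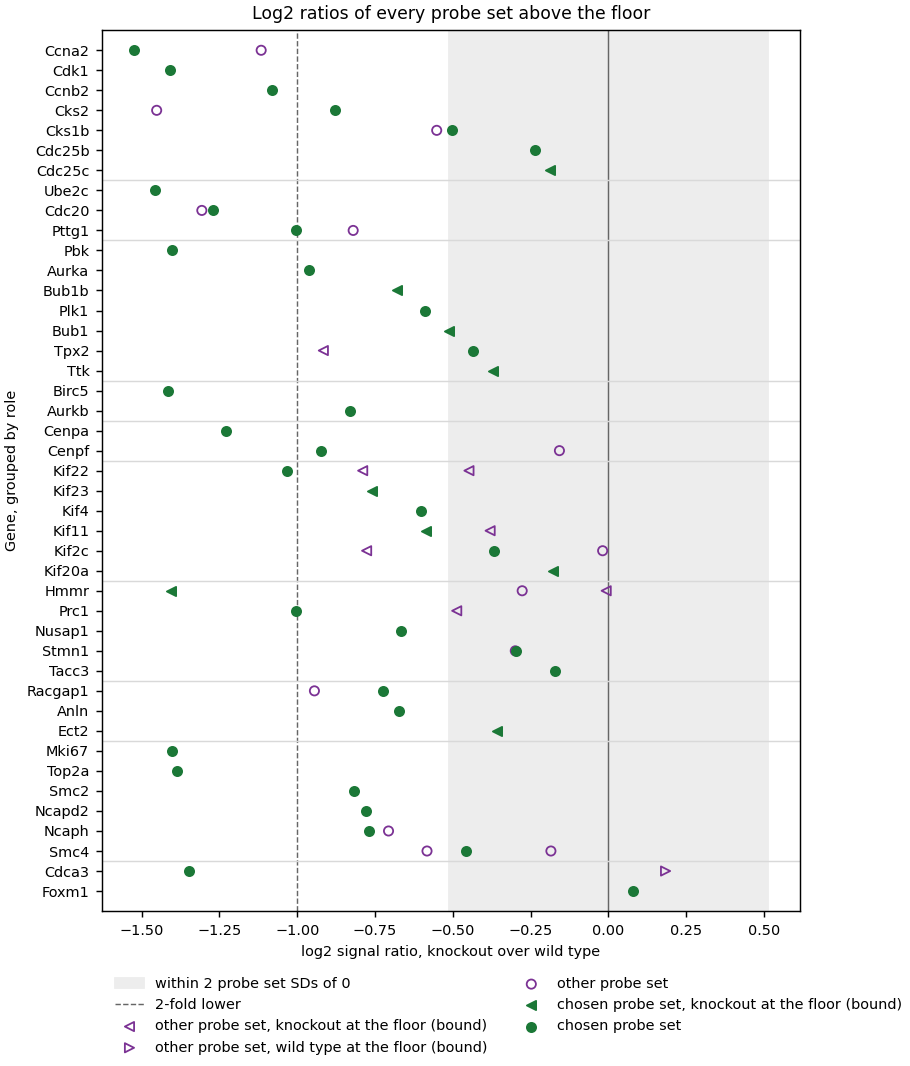
Log2 ratio of knockout over wild type for every probe set of the members above the floor on at least 1 array, grouped by role. Filled symbols are the chosen probe sets, open symbols the others, and triangles are bounds that point the way the true ratio lies. The grey band is 2 probe set SDs on either side of 0. All measured probe sets but that of Foxm1 lie left of 0.

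Most probe sets of these 45 genes had the lower signal in the knockout: 73 of 83 with no floor applied, and 46 of the 47 that were measured. On the chosen probe sets of all genes, those shares were 44.7% and 45.1%. A second probe set of Cdca3 lay the other way from its chosen probe set, at 33.0 in the wild type, under the floor, and 45.2 in the knockout. A second measured probe set was available for 11 members, and both were below 0 in all 11. Their median log2 ratios were -0.77 on the chosen probe set and -0.71 on the second, and the SD between them was 0.25 per probe set, close to that of all genes. On either probe set 3 of the 11 were at least 2-fold lower, Ccna2 and Cdc20 on both. Of all 2597 genes with a second measured probe set, 0.385% were at least 2-fold lower on it. For 21 of the 45 genes the array held only 1 probe set. A wild-type signal near the floor leaves less room for a measured ratio. The 9 measured members with a knockout signal under 79.6, 2 times the floor, were 1.59-fold lower on the median, with 1 of them at 2-fold. The other 25 were 2.01-fold lower on the median, with 13 at 2-fold. Whether the floor contributed to this difference was not tested.

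Other genes of mitosis were lower as well, by less on the median. Of 83 such genes, 43 were measured, with a median log2 ratio of -0.39. Ratios lay below 0 for 38 of these (45.1% of all measured genes), and 10 reached 2-fold lower (0.652% of all measured genes). A further 12, of 55 above the floor on any array, were above it in the wild type only, and 0 in the knockout only. Of all 8826 genes above the floor on any array, 269 (3.05%) and 424 were. The 6 with the largest ratios were Spc25 (906.2 to 303.2, 2.99-fold lower) and Nuf2 (135.0 to 53.4) of the NDC80 kinetochore complex, the checkpoint protein Mad2l1 (329.0 to 134.5), Incenp of the passenger complex (296.8 to 122.3), Trip13, an ATPase that recycles MAD2 (89.8 to 40, just above the floor), and Cdca5, sororin, which protects cohesin (213.7 to 96.3). Cit, citron kinase of the midbody, was the only measured gene of the list that was 2-fold higher (40.7 to 84.4), from a wild-type signal just above the floor. Genes of G1 and S phase had a median of -0.41 over 35 measured, with 32 below 0 and 3 at 2-fold: Rrm2, a ribonucleotide reductase subunit (2.65-fold lower), the helicase subunit Mcm2 (2.47-fold) and Uhrf1, which maintains DNA methylation (2.10-fold). Other measured probe sets gave log2 ratios of -0.40 for Mcm2, -1.46 and -0.37 for Rrm2, and -0.36 for Cdca5. The difference in median between the lists of this paragraph and the members was not tested.

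**Figure D5:**
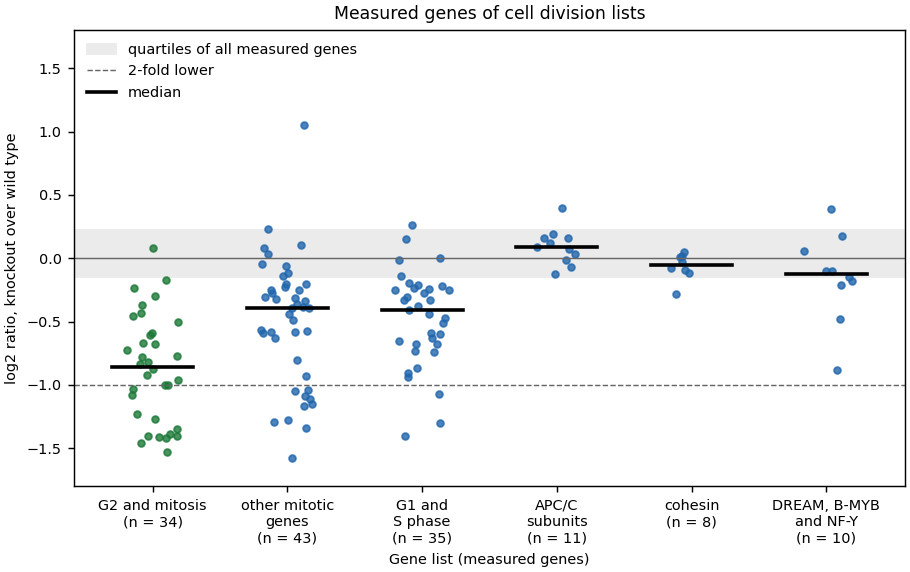
Log2 ratio of knockout over wild type for measured genes of 6 cell division lists (points, spread sideways for legibility), with the median of each as a black bar and the quartiles of all measured genes as a grey band. The bar lies at -0.85 for G2 and mitosis genes, at -0.39 and -0.41 for other mitotic and G1 and S phase genes, and within the band for APC/C subunits, cohesin and the promoter regulators.

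Cell type markers were read as lists, whose sums rest mostly on their brightest genes. All 15 islet endocrine markers with a probe set were measured (median log2 ratio -0.13, summed signal 59580 for wild type, 60133 for knockout), with Slc2a2, the glucose transporter of beta cells, at -0.89, G6pc2, a glucose-6-phosphatase of beta cells, at -0.73 and Ghrl, ghrelin, at 0.78. Also measured were all 12 acinar markers (0.07, 45470 and 47653, with Pla2g1b at 0.92), 11 mesenchymal markers (-0.02, 13524 and 12775) and 10 endothelial markers (-0.12, 3902 and 3575). Duct markers had a median of 0.00 over 7 measured (4869 and 5192), with Tspan8 at 1.09 and Cftr at the floor on both arrays. Schwann and neuronal markers had 0.37 over 5 measured (776.2 and 868.1), with S100b at the floor. Of the erythroid markers, Hba-a1, Slc4a1 and Epb42 were at the floor on both arrays, and Tfrc and Alas2 each had -0.19 (363.7 and 319.2 summed). Immune markers lay on the other side of 0 from the mitotic genes. All 13 measured had ratios above 0 on the chosen probe set, with a median of 0.72 and summed signals of 1617 and 3954. The highest were S100a8 (98.9 and 788.8, 7.98-fold higher), S100a9 (6.44-fold) and Ngp (4.82-fold), all granule or cytosol proteins of neutrophils. Ptprc, C1qc and H2-Ab1 were above the floor in the knockout only. The part of cell composition in the lower mitotic signals was not tested, and it cannot be told apart from genotype with 1 array of each.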

How the data were processed

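Signal intensities of 22690 probe sets on 2 arrays, 1 per genotype, were used as the authors deposited them. Per the submitters' processing notes the software was GCOS 1.02. Background correction, probe summary and detection calls were not given in the sources used here. Deposited signal intensities had equal 2% trimmed means (150.1 on each array), so they had been scaled before deposit. From there, the knockout array was set to the wild-type trimmed mean (factor 1.00), lower signals were raised to a floor at the 40th percentile of all signals (39.8), and the log2 ratio was taken. Probe sets with 1 gene symbol in the platform annotation were used (20380, Affymetrix controls left out), and the probe set with the highest mean signal stood for a gene. This gave 8133 measured genes, 693 with a bound and 3567 under the floor throughout, 12393 in all. Older list symbols were updated through the RefSeq gene table of GRCm38.p6.

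No test was run, because there is 1 array per genotype, and precision is limited by that number of arrays. Genes were counted at a 2-fold limit. The members, the 5 further cell division lists, the 8 marker lists and the motifs were chosen with earlier results of these data known. Named genes are all members, and from each other cell division list the measured genes past 2-fold, at most 6 higher and 6 lower, with the brightest 2 added where fewer than 2 passed. The procedure was tested on simulated data. Promoter windows are RefSeq's. Python 3.11.15, numpy 2.4.6, pandas 2.3.3 and statsmodels 0.14.6 (loess, span 0.4) were used. Tried in turn were no rescaling, centring on the median, loess, quantile normalisation, a floor at the 25th or at the 60th percentile, no floor but a pseudocount of 16, the median of all measured probe sets per gene, only the second brightest, only probe sets without the suffixes _x_at and _s_at, and bounds counted in.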

Additional observations from a re-analysis of the deposited data

How the results depend on the processing

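The members' median log2 ratio lay between -1.03 (floor at the 60th percentile, 19 genes) and -0.67 (pseudocount, no floor, 45 genes) over the 11 alternatives. The number of members at least 2-fold lower was 11 to 16 of 19 to 45 under every alternative but the second brightest probe set. There it was 3 of 11, and fewer genes have such a probe set. Of all genes used, 0.385% were at least 2-fold lower on the second brightest probe set, and 0.495% to 0.822% under the other alternatives. Of all genes, 53 were lower and 42 higher at 2-fold; the lower count was 80 with a floor at the 25th percentile, 28 with a floor at the 60th and 10 on the second brightest probe set, and the higher count was 81, 13 and 5 in those settings, 26 with loess, 27 with quantile normalisation and 88 with the pseudocount. The counts under other floors and on second probe sets cover other numbers of genes. The share of genes at least 2-fold lower differed as well from the 0.652% of the main processing. It was 0.822% with a floor at the 25th percentile, 0.495% with a floor at the 60th and 0.385% on the second brightest probe set. Why the counts and shares differed was not tested. Of 331 recomputed ratios of single members, 324 stayed within 1 probe set SD, 7 moved further (Ccna2, Cenpf, Cks2 and Kif2c, always with another choice of probe set), and 0 of the 2-fold lower members changed sign. Without probe sets suffixed _x_at or _s_at, which can cross-hybridise, 11 of 29 measured members were at least 2-fold lower, against 0.578% of all measured genes. No paired analysis was possible because each genotype has 1 array. No value has a replicate check.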

Other observations

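Genes outside the list with the same promoter arrangement, a CHR within 50 bases of the start and a CCAAT box 20 to 50 bases ahead of it, were looked up after the members' promoters had been seen. There were 27 measured, of which 21 had log2 ratios below 0, with a median of -0.29, against 2982 of 6579 measured genes outside the list with a window and a median of 0.03. The lowest were Spc25, Asf1b, a histone chaperone of S phase (176.5 to 82.2, log2 -1.10), and Cdc45, a replication helicase factor (74.8 to 47.5, log2 -0.66). At the other end Coq6, an enzyme of ubiquinone synthesis, went from 44.5, near the floor, to 100.5 (log2 1.18). Of the 27, 6 belong to the cell division lists. The remaining 21 had a median of -0.12, with 15 below 0 and 1, Asf1b, at least 2-fold lower. They are on none of those lists but were not screened for other genes of cell division. Of the 184 measured genes outside the list with a CHR within 50 bases, whatever the CCAAT boxes, 101 were below 0, with a median of -0.04. At least 2-fold lower were 6 of them (3.26%), against 32 of all 6579 (0.486%). Genes of the cell division lists are among the 184. These are descriptions of 2 libraries, and none of these differences was tested.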
